A study of Mus musculus with 6 samples.

Results

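Mitochondrial ribosomal proteins are the protein components of the ribosome that works inside mitochondria. Their genes were taken as all rows of the deposited table whose mouse symbol begins with Mrpl or Mrps followed by a digit, leaving out the 5 symbols that contain -ps, which mark pseudogenes. This gave 78 genes of the 54532 in the table, 49 named for the large subunit (Mrpl) and 29 for the small subunit (Mrps), on 17 chromosomes. The samples were 6 RNA-seq libraries of primary bone-marrow-derived macrophages (BMDMs) of wild-type C57Bl/6 mice, replicates A and B of 3 groups. Untreated BMDMs received neither agent, LPS BMDMs received 100 ng/ml LPS for 2 h, and Met + LPS BMDMs received 5 mM metformin for 6 h before the same LPS stimulation. The cells were grown from bone marrow in medium conditioned by L929 cells, and no group received metformin without LPS, so an effect of metformin on unstimulated cells was not measured. The comparisons address how 2 h of LPS changes the transcripts of resting macrophages and how metformin pretreatment changes the transcripts of LPS-stimulated ones. With 2 libraries per group, seeded as duplicates of one cell preparation or of several (the sources used here do not say), p-values measure the spread between these libraries, which may be technical.

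Mitochondria keep a small genome that encodes subunits of the respiratory chain and ATP synthase together with the RNAs of their own ribosome, the mitoribosome. The proteins of the mitoribosome are all encoded in the nucleus, made in the cytosol and imported. Many have a counterpart in bacterial ribosomes, and the others are found only in mitochondria. LPS comes from the outer membrane of Gram-negative bacteria and is sensed by macrophages through TLR4, and activated macrophages are known to shift from respiration towards glycolysis. Metformin, a drug used in type 2 diabetes, is known to inhibit complex I of the respiratory chain. Mitoribosomal genes are regarded as housekeeping genes, and the transcription factors NRF1, GABPA (an ETS factor) and YY1 are known to act at promoters of nuclear genes for mitochondrial proteins.

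The promoters of 5 members are shown because these genes stood at the ends of the 2 main comparisons below: Mrpl52 and Mrpl39 were the members called higher with LPS, Mrpl43 had the largest decrease with LPS, and Mrps6 and Mrpl1 had the largest decrease and the largest increase with metformin pretreatment. Each is the RefSeq window of GRCm38.p6 from 250 bases before to 50 bases after the gene's start, given 5′ to 3′ on the strand of the gene. They lie at chr14:54426659-54426958, plus strand (Mrpl52), chr16:84735195-84735494, minus strand (Mrpl39), chr19:45006393-45006692, minus strand (Mrpl43), chr16:92058086-92058385, plus strand (Mrps6) and chr5:96209865-96210164, plus strand (Mrpl1). Capitals mark exact matches, on either strand, to any of 6 motifs searched: GCGCATGCG (core of the NRF1 site), CCGGAAG (ETS), AAGATGGCG (YY1), GGGCGG (SP1), CACGTG (E-box) and TGATGNAAT (ATF4 composite element).
Mrpl52: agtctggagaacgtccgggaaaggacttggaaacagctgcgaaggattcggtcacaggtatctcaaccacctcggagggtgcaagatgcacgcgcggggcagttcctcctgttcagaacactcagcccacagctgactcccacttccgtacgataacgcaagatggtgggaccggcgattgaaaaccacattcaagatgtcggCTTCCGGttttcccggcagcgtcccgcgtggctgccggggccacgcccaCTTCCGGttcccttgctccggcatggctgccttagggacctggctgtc
Mrpl39: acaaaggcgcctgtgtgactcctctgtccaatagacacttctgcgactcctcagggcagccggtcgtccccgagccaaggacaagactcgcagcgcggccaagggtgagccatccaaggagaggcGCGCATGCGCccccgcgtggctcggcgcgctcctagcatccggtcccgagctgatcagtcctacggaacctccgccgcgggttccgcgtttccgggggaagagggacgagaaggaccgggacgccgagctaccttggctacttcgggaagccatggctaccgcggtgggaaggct
Mrpl43: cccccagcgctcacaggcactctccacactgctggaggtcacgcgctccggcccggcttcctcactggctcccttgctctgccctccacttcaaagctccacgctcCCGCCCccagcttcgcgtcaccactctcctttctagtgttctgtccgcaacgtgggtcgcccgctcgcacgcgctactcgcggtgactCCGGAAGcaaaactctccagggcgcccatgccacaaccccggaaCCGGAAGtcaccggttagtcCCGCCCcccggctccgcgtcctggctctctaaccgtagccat
Mrps6: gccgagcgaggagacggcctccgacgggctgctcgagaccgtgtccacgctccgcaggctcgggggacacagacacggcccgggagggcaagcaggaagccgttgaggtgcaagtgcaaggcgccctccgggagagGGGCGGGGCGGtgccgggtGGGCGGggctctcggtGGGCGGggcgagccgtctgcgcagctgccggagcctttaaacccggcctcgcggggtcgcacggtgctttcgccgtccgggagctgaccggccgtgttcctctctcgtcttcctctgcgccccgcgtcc
Mrpl1: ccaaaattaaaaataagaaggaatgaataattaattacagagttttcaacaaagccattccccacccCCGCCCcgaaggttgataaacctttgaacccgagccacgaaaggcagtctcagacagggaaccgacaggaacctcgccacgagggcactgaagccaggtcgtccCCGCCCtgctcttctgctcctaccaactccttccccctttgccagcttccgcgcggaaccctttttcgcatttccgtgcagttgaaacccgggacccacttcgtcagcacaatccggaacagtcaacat
Mrpl52 held 2 ETS matches on the opposite strand, and Mrpl39 held 2 overlapping matches to the NRF1 core, which is nearly palindromic, so that they mark the same bases. Mrpl43 held 2 ETS and 2 SP1 matches, Mrps6 held 4 SP1 matches and Mrpl1 held 2. A match is a description of the letters and not a measured binding site.

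Over the whole set, the table of promoters held 69 of the 78 members. The ETS motif was in 37.7% of member promoters (26 of 69), against 21.4% of the promoters of tested genes (1953 of 9106) and 9.93% of all 27025 promoters in the table. The NRF1 core was in 10.1% (7 of 69), against 4.36% of tested and 1.95% of all genes. YY1 was in 11.6% (8 of 69), against 3.87% and 1.64%. SP1 went the other way, with 49.3% of members (34 of 69) against 68.6% of tested genes, although all genes in the table stood at 38.2%. The E-box, the site of Myc and its partners, was in 7.25% of members (5 of 69) against 12.2% and 8.09%, and the ATF4 composite element, a target of the integrated stress response, was in none of the 69, against 0.494% and 1.08%. Promoters of the respiratory chain subunits (n = 64) held the NRF1 core in 12.5% and ETS in 25%, and those of the cytosolic ribosomal proteins (n = 66) in 4.55% and 39.4%. These shares are descriptions without a test. In LPS vs untreated the median log2 fold change after the scaling described below was 0.04 in the 25 tested members with an ETS match and -0.06 in the 43 without, and 0.09 in the 7 with an NRF1 core and -0.06 in the 61 without, but -0.10 in the 8 with a YY1 match and -0.04 in the 60 without. The E-box gave 0.14 in the 5 with and -0.05 in the 63 without, and SP1 gave -0.07 in the 34 with and -0.01 in the 34 without. For Met + LPS vs LPS the medians with and without were -0.08 and 0.01 for ETS, -0.03 and 0.00 for NRF1 and 0.04 and -0.01 for YY1. They were -0.01 and 0.00 for the E-box and -0.01 and -0.00 for SP1.

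**Figure D1:**
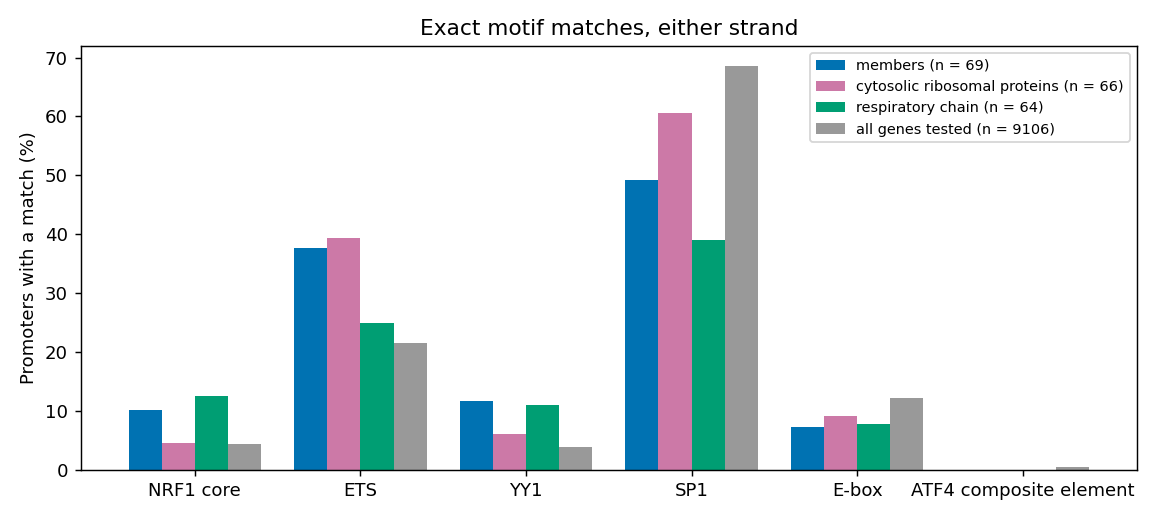
Share of promoters (y axis, %) that held an exact match to each of 6 motifs (x axis) on either strand, for members, cytosolic ribosomal proteins, respiratory chain subunits and all genes tested. Members stood above all tested genes for NRF1 (10.1% against 4.36%), ETS (37.7% against 21.4%) and YY1 (11.6% against 3.87%), and below them for SP1 (49.3% against 68.6%).

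The values are TPM, which are read counts per gene length set to a fixed total per library. The length that gave whole reads was that of all annotated exons of a gene, from 607 bases in Mrpl34 to 8631 in Mrps35. Levels of different genes therefore also depend on how many exons are annotated. Whole reads recovered from the TPM summed to between 25457016 and 30762754 per library. A tested member rested on 41 to 1415 reads, with a median over members of 424.5. The macrophage markers Adgre1, Csf1r, Itgam, Cd68, Lyz2, Mrc1, Mertk and Fcgr1 summed to 43942 to 45836 TPM in the untreated, 34733 to 35491 in the LPS and 28959 to 29076 in the Met + LPS libraries. Fibroblast markers (0.409 to 0.879 TPM in all) and erythroid markers (0 to 0.164 TPM) were near 0, and neutrophil markers summed to 30.0 and 32.8 TPM in the untreated, 26.7 and 28.2 in the LPS and 45.9 and 43.6 in the Met + LPS libraries, and their part in the members' values was not tested. Scaling moved the centre of the data: the median tested gene changed by -0.48 (log2) in LPS vs untreated and by -0.03 in Met + LPS vs LPS as deposited, and by -0.01 and -0.02 after the libraries were rescaled by their median ratio over genes. Changes in LPS vs untreated are therefore given beside that shift. In bulk samples, less RNA of a gene per cell and fewer cells that make it cannot be told apart.

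Mitoribosomal transcripts were present at moderate levels in all 6 libraries. The mean over the 6 libraries ran from 2.13 to 99.0 TPM among the 77 tested members, with a median of 31.8 TPM for the large and 14.8 TPM for the small subunit. These levels and the order of genes below carry the limit on annotated length given above. In the small subunit the highest were Mrps21, the mitochondrial form of bacterial S21, with 125 and 117 TPM untreated, 91.4 and 94.7 with LPS and 80.2 and 85.8 with Met + LPS, then Mrps15 (84.1, 84.7, 61.4, 63.5, 59.2 and 64.9 TPM in the same order) and Mrps7 (57.2, 57.4, 40.3, 41.1, 40.2 and 45.3 TPM). In these 3 genes both untreated libraries stood above the other 4. In the large subunit the highest were Mrpl27, which in bacteria lies near the peptidyl transferase centre, with 91.1 and 98.9 TPM untreated, 80.4 and 72.1 with LPS and 64.2 and 67.0 with Met + LPS. Mrpl28 followed with 96.9 and 101 TPM, 59.7 and 58.6 TPM, and 45.9 and 46.3 TPM. Mrpl54 had 74.0 and 79.0 TPM, 68.9 and 64.1 TPM, and 58.0 and 57.8 TPM. In all 3 the groups did not overlap and fell in the order untreated, LPS, Met + LPS. The lowest tested member was Mrpl23, with 1.15 to 3.20 TPM. The members summed to 2765 and 2805 TPM in the untreated, 1925 and 1961 in the LPS and 1813 and 1926 in the Met + LPS libraries.

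**Figure D2:**
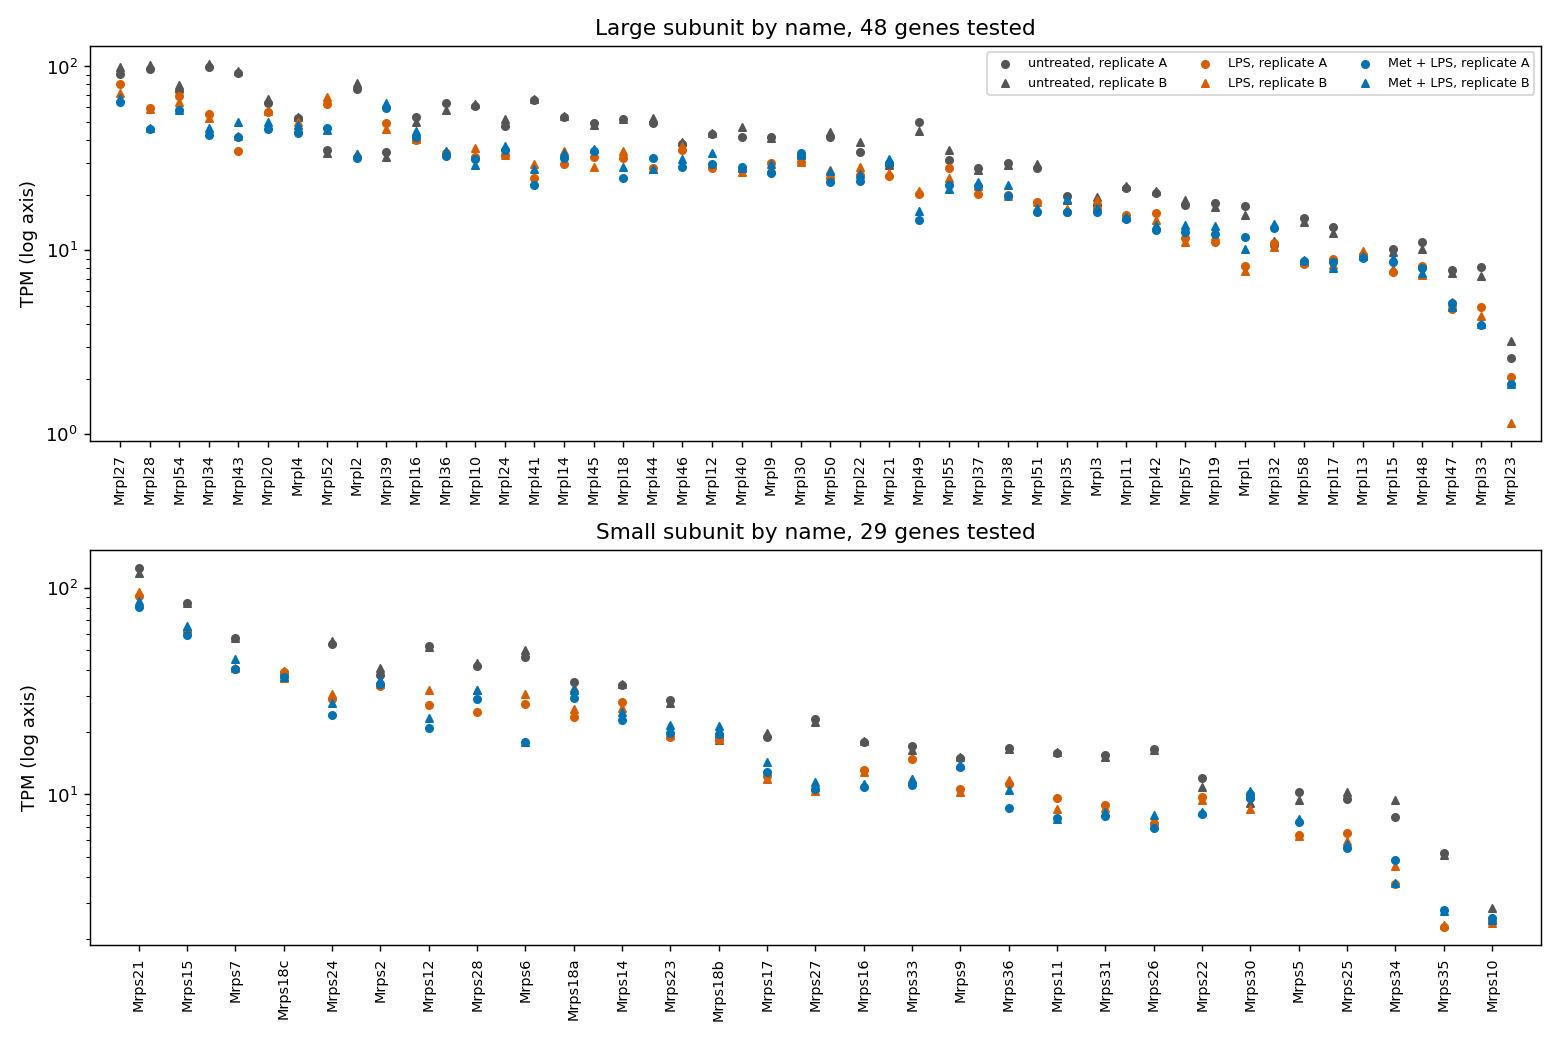
TPM (log axis) of each tested member in all 6 libraries, large subunit above (48 genes) and small subunit below (29 genes), ordered by mean level. Most members lie lower in the LPS than in the untreated libraries, as the median tested gene does (log2 fold change -0.48). Mrpl52 and Mrpl39 are exceptions, with their untreated libraries (32.1 to 35.3 TPM) below the LPS ones (45.5 to 67.8 TPM).

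Mrpl53 was the member that did not pass the filter (at least 1 TPM in at least 2 libraries) and was listed at 0 in every library. In the annotation, 88% of its exon bases are shared on the same strand with Gm42688, which had 0.11 to 1.52 TPM, so a 0 there does not show that the transcript is absent. Sequence sharing touched other members as well. A total of 25 members had at least 5% of their exon bases in common with another gene, among them Mrps34 (77.8%, with Mapk8ip3 and Nme3), Mrps25 (69.8%, with Nr2c2), Mrpl19 (36%, with Gcfc2), Mrpl43 (33.4%, with Twnk) and Mrps18b (30.5%, with Gm16279). The strand setting of the read counting is not given in the sources used here, so their levels are uncertain. The other extreme was a set of 44 members with under 5% of shared exon bases and at least 90% of their 31-base stretches found in no other gene, and their counts are given below beside those of all members.

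LPS lowered the share of most mitoribosomal transcripts in the RNA pool, by about as much as it lowered the median gene. By limma with Benjamini-Hochberg adjustment over the 12755 tested genes, 58 of the 77 members were called lower and 2 higher (adjusted p under 0.01), where 60.1% of all tested genes were called lower and 16.2% higher. The median log2 fold change was -0.53 over the members, against -0.48 over all tested genes. The large subunit stood at -0.54, with 35 of 48 members lower and 2 higher, and the small subunit at -0.50, with 23 of 29 lower and 0 higher. After median-ratio scaling the same list split evenly, with 15 members lower and 15 higher and a median of -0.04 (backgrounds of 27.6% lower and 30.6% higher), so the direction of the group rested on the scaling. In this limma fit no member passed the study's cut-offs (log2 fold change of 2 or more in size, adjusted p under 0.01), which 6.08% of all tested genes passed. The study applied them to DESeq2 results. The largest absolute log2 fold change of a member was 1.28. After scaling, 69 of the 77 members (89.6%) were within 0.5 of 0, against 54.5% of all tested genes. The range between the quartiles was 0.41 for the members and 0.88 for all tested genes. It was narrower still for the cytosolic ribosomal proteins (0.18) and the respiratory chain subunits (0.26), so this closeness was not particular to the members.

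**Figure D3:**
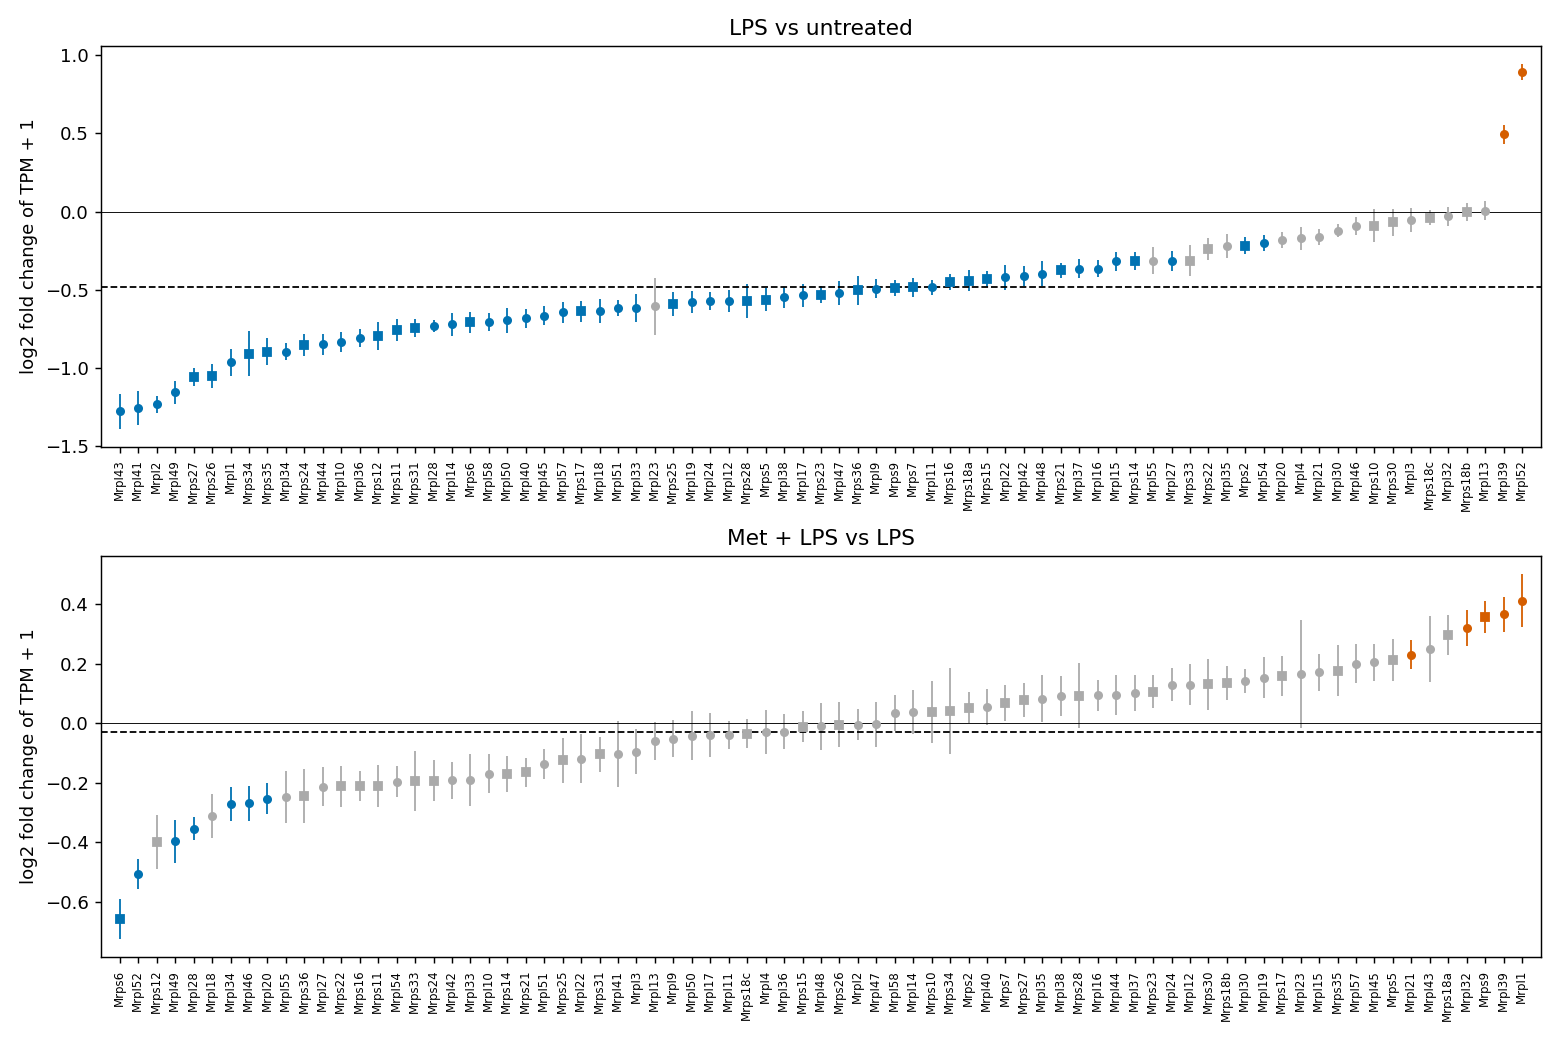
Log2 fold change of TPM + 1 with its standard error for each of the 77 tested members (circles large subunit, squares small subunit), ordered by size, in LPS vs untreated (above) and Met + LPS vs LPS (below). Blue marks members called lower, orange those called higher and grey those not called, the dashed line is the median of all tested genes (-0.48 and -0.03), and Mrpl52 and Mrpl39 stand apart above 0 in the upper panel.

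Mrpl52, a large-subunit protein found only in mitochondria, rose with LPS in spite of the general shift. It had 35.3 and 34.0 TPM in the untreated, 62.7 and 67.8 in the LPS and 46.2 and 45.1 in the Met + LPS libraries, and the 3 groups did not overlap. The log2 fold change in LPS vs untreated was 0.89 (standard error 0.0506, limma adjusted p = 6.75e-06), and 1.41 after scaling. Mrpl39, also mitochondria-specific, was the other member that rose, from 34.5 and 32.1 TPM untreated to 49.1 and 45.5 with LPS and 59.3 and 63.1 with Met + LPS. Its log2 fold change with LPS was 0.49 (standard error 0.0597, limma adjusted p = 0.000238), and 1.01 after scaling. Unlike Mrpl52, it was highest in the Met + LPS libraries. Neither gene shares exon bases with another gene, and both were called higher whichever library was left out.

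Both of these genes lie next to a gene that LPS strongly induced, which was noticed after their values were seen. Mrpl52 (chr14:54426909-54429756, plus strand) ends 1856 bases before Mmp14, which encodes a membrane-anchored matrix metalloproteinase and lies on the same strand. Mmp14 had 0.463 and 0.328 TPM untreated, 45.9 and 47.7 with LPS and 13.5 and 13.2 with Met + LPS, so its order of groups was that of Mrpl52. Mrpl39 (chr16:84717576-84735742, minus strand) ends 2331 bases from Mir155hg, the host gene of miR-155, on the opposite strand. Mir155hg had 0.367 and 0.292 TPM untreated, 176 and 185 with LPS and 155 and 159 with Met + LPS, so it did not share the highest value of Mrpl39 in the Met + LPS libraries. Mrpl4, by contrast, lies 7146 bases from Icam1, which went from 41.4 and 42.4 TPM untreated to 2766 and 2797 TPM with LPS, and Mrpl4 itself had 52.3 and 53.4 TPM untreated and 43.8 and 50.1 with LPS (limma adjusted p = 0.0679), so it was not called. These were the 3 members of 77 (3.9%) whose nearest tested gene was at least 2 higher (log2) with LPS, and the same held for 3.49% of all tested genes. The part that neighbours play in the values was not tested.

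The largest decreases with LPS were in the large subunit. Mrpl43, a mitochondria-specific protein, had 92.7 and 94.6 TPM untreated, 34.7 and 41.8 with LPS and 41.3 and 49.9 with Met + LPS, a log2 fold change of -1.28 (limma adjusted p = 4.62e-05). Mrpl41, also mitochondria-specific, had 65.6 and 66.3 TPM untreated, 24.9 and 29.5 with LPS and 22.6 and 27.9 with Met + LPS (log2 fold change -1.25). Mrpl2, the counterpart of a bacterial protein at the peptidyl transferase centre, had 75.2 and 81.2 TPM untreated, 32.0 and 33.4 with LPS and 31.9 and 33.3 with Met + LPS (-1.23). In each of these 3 genes the untreated libraries were more than 1.5 times any other library, while the LPS and Met + LPS libraries overlapped. Mrpl49 had 49.8 and 44.8 TPM untreated, 20.4 and 20.9 with LPS and 14.6 and 16.3 with Met + LPS (-1.16). Mrps27, a mitochondria-specific small-subunit protein, had 23.2 and 22.4 TPM untreated, 10.5 and 10.4 with LPS and 10.7 and 11.5 with Met + LPS (-1.06). All 5 were also called lower after scaling, at -0.56 to -0.76. Mrpl43 shares exon bases on the opposite strand with Twnk, the mitochondrial DNA helicase, which fell more, from 9.88 and 8.96 TPM untreated to 0.866 and 0.707 with LPS (log2 fold change -2.54). Mrps27 shares 24.2% of its exon bases with 6430562O15Rik, which had 0.04 to 0.18 TPM. Mrpl41, Mrpl2 and Mrpl49 have under 5% of shared exon bases, but 78.9% of the 31-base stretches of Mrpl41 are its own, so it is not among the 44 members above.

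**Figure D4:**
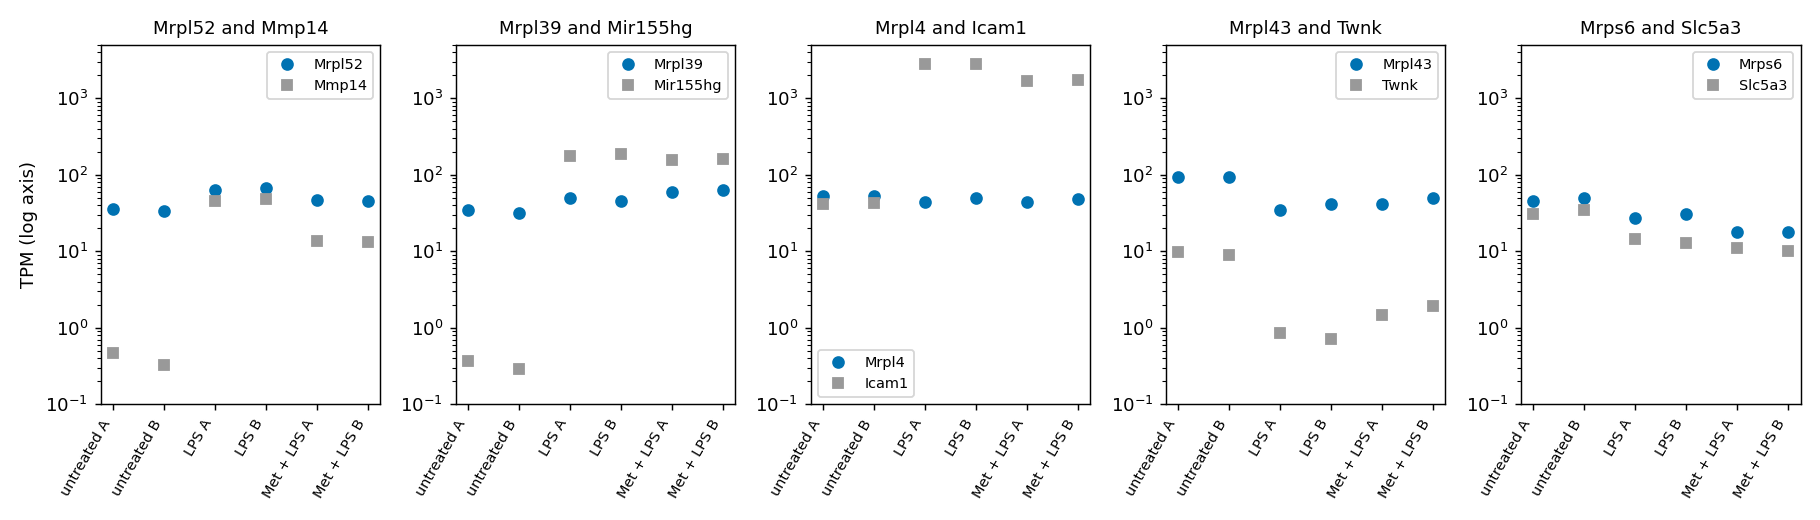
TPM (log axis) in each of the 6 libraries for 5 members (blue circles) and the nearest tested gene (grey squares). Mmp14, Mir155hg and Icam1 rose with LPS while Mrpl52 and Mrpl39 rose less and Mrpl4 did not rise, and Twnk and Slc5a3 fell with LPS, as Mrpl43 and Mrps6 did.

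Some members held their level with LPS as deposited, where the median tested gene fell. A total of 16 members (20.8%) were within 0.25 of 0, against 17.6% of all tested genes. Mrpl13 had 9.41 and 9.71 TPM untreated, 9.29 and 9.95 with LPS and 9.05 and 9.31 with Met + LPS, with overlapping untreated and LPS libraries (log2 fold change 0.01, and 0.48 after scaling, limma adjusted p = 0.000569). Among the 3 paralogs of bacterial S18, which occupy different sites of the mitoribosome, Mrps18b and Mrps18c did the same. Mrps18b had 18.9 and 18.4 TPM untreated, 18.3 and 19.0 with LPS and 19.7 and 21.4 with Met + LPS, a change of 0.00 with LPS and of 0.50 after scaling. Mrps18c had 38.5 and 39.4 TPM, 39.3 and 36.5 TPM, and 37.0 and 37.0 TPM, a change of -0.04 and of 0.47 after scaling. Mrps18a, the paralog that sits in the large subunit in spite of its name, was lower with LPS, with 35.1 and 32.8 TPM untreated, 23.6 and 25.9 with LPS and 29.4 and 31.9 with Met + LPS (-0.44, and 0.07 after scaling, where it was not called). The difference between the paralogs was not tested, and Mrps18b and Mrps18c share 30.5% and 23.2% of their exon bases with other genes.

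Sorting the members by origin or place in the mitoribosome gave similar medians in LPS vs untreated. The 46 members with a bacterial counterpart had a median of -0.49, with 34 lower and 0 higher, and the 30 tested mitochondria-specific ones of -0.60, with 23 lower and 2 higher. After scaling the medians were 0.01 and -0.12. The 3 proteins of the L7/L12 stalk and its base had a median of -0.57 with 3 lower, and the 5 listed for the peptide exit tunnel (Mrpl22, Mrpl23, Mrpl24, Mrpl44 and Mrpl45) of -0.61 with 4 lower. Moving Mrps18a and Mrps30 to the large subunit and leaving out Mrps36, which is assigned to the 2-oxoglutarate dehydrogenase complex, gave -0.53 for 50 large-subunit and -0.55 for 26 small-subunit genes. Mrps36 itself had 16.7 TPM in both untreated libraries, 11.2 and 11.7 with LPS and 8.62 and 10.6 with Met + LPS. Over the 44 members with little shared sequence, 32 were lower and 2 higher (72.7% and 4.55%, against 75.3% and 2.6% of all 77), with a median of -0.47.

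Metformin pretreatment of LPS-stimulated cells left the median of the mitoribosomal transcripts near 0 change, with members called in both directions. In Met + LPS vs LPS the median log2 fold change was -0.01 over the 77 members (-0.02 large, -0.00 small subunit), against -0.03 over all tested genes. Within 0.25 of 0 were 63 members (81.8%), against 53.3% of all tested genes. The range between the quartiles was 0.32 for the members and 0.46 for all tested genes. It was narrower for the cytosolic ribosomal proteins (0.11) and the respiratory chain subunits (0.19). By limma, 7 members were called lower and 5 higher, where 18% of all tested genes were lower and 14.5% higher. After scaling the counts were 6 and 5 (backgrounds of 17.4% and 15.6%). In the limma fit no member passed the study's cut-offs for this comparison (log2 fold change of 0.7 or more in size, adjusted p under 0.01). Of all tested genes, 8.28% passed them. The largest absolute log2 fold change was 0.657. With any single library left out, 3 to 8 members were lower and 0 to 2 higher, and in a fit of the LPS and Met + LPS libraries alone 3 were lower and 0 higher, so most of these calls depended on the fit. Over the 44 members with little shared sequence, 5 were lower and 4 higher.

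The 3 members that stayed lower in all 16 alternative fits were Mrps6, Mrpl52 and Mrpl28. Mrps6, the mitochondrial form of bacterial S6, had 46.0 and 49.8 TPM untreated, 27.3 and 30.6 with LPS and 18 and 17.9 with Met + LPS, and its groups did not overlap. Its log2 fold change in Met + LPS vs LPS was -0.66 (standard error 0.0667, limma adjusted p = 0.000403). Mrps6 (chr16:92058270-92112227, plus strand) shares 19.9% of its exon bases with overlapping genes, among them Slc5a3, a myo-inositol transporter on the same strand, which had 30.7 and 35.0 TPM untreated, 14.4 and 13.0 with LPS and 11.2 and 10.1 with Met + LPS. Mrpl52 was lower by 0.51 on the log2 scale (a log2 fold change of -0.51, limma adjusted p = 0.000378), with Met + LPS levels between those of the LPS and the untreated libraries. Mrpl28 was lower by 0.35 (log2 fold change -0.35, limma adjusted p = 0.000531) and lay at 45.9 and 46.3 TPM, under its LPS libraries at 59.7 and 58.6 TPM.

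The other members called lower were Mrpl49 (log2 fold change -0.40), Mrpl34 (-0.27), Mrpl46 (-0.27) and Mrpl20 (-0.25), at limma adjusted p of 0.00485, 0.00814, 0.00979 and 0.00783. They were called in 7, 4, 4 and 8 of the 16 alternative fits in the same order. Mrps12, whose bacterial counterpart lies at the decoding centre, had 52.2 and 51.5 TPM untreated, 27.0 and 32.1 with LPS and 20.9 and 23.5 with Met + LPS (-0.40, limma adjusted p = 0.0112), which missed the threshold. Among the members called higher, Mrpl1 had 17.3 and 15.7 TPM untreated, 8.20 and 7.72 with LPS and 11.8 and 10.1 with Met + LPS, a log2 fold change of 0.41 (limma adjusted p = 0.00886). Mrpl39 followed at 0.37 (limma adjusted p = 0.00293). Mrps9 had 14.9 and 15.2 TPM untreated, 10.6 and 10.3 with LPS and 13.5 and 13.8 with Met + LPS, a change of 0.36 (limma adjusted p = 0.00185), and was called in 13 of the 16 alternative fits. Mrpl32 had 10.7 and 11.2 TPM untreated, 10.9 and 10.5 with LPS and 13.3 and 14 with Met + LPS, a change of 0.32 (limma adjusted p = 0.00519). Mrpl21 was the last, at 0.23 (limma adjusted p = 0.00847). Mrpl39 and Mrpl32 were each called in 8 of the 16 alternative fits, Mrpl1 in 7 and Mrpl21 in 6. Mrps18a, at 0.30 (limma adjusted p = 0.0115), missed the threshold. In Mrpl1 and Mrps9 the Met + LPS libraries lay between the LPS and the untreated ones, and in Mrpl32 above both.

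Set against untreated cells, Met + LPS cells had 59 members lower and 3 higher, with backgrounds of 58.8% and 16.3%, and a median log2 fold change of -0.51 against -0.48 over all tested genes. After scaling, 17 were lower and 18 higher (backgrounds of 29.7% and 33.4%), with a median of -0.00. Over the 44 members with little shared sequence, 31 were lower and 3 higher as deposited. No member passed a cut-off of 2 on the log2 fold change with an adjusted p under 0.01, which 5.35% of all tested genes passed. Mrpl49 had the largest decrease, at -1.55, followed by Mrps6 at -1.36, Mrpl41 at -1.36 and Mrpl2 at -1.24. The 3 higher members were Mrpl39 at 0.86, Mrpl52 at 0.39 and Mrpl32 at 0.29. This comparison shares its libraries with the other 2, so its values are not independent of theirs.

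**Figure D5:**
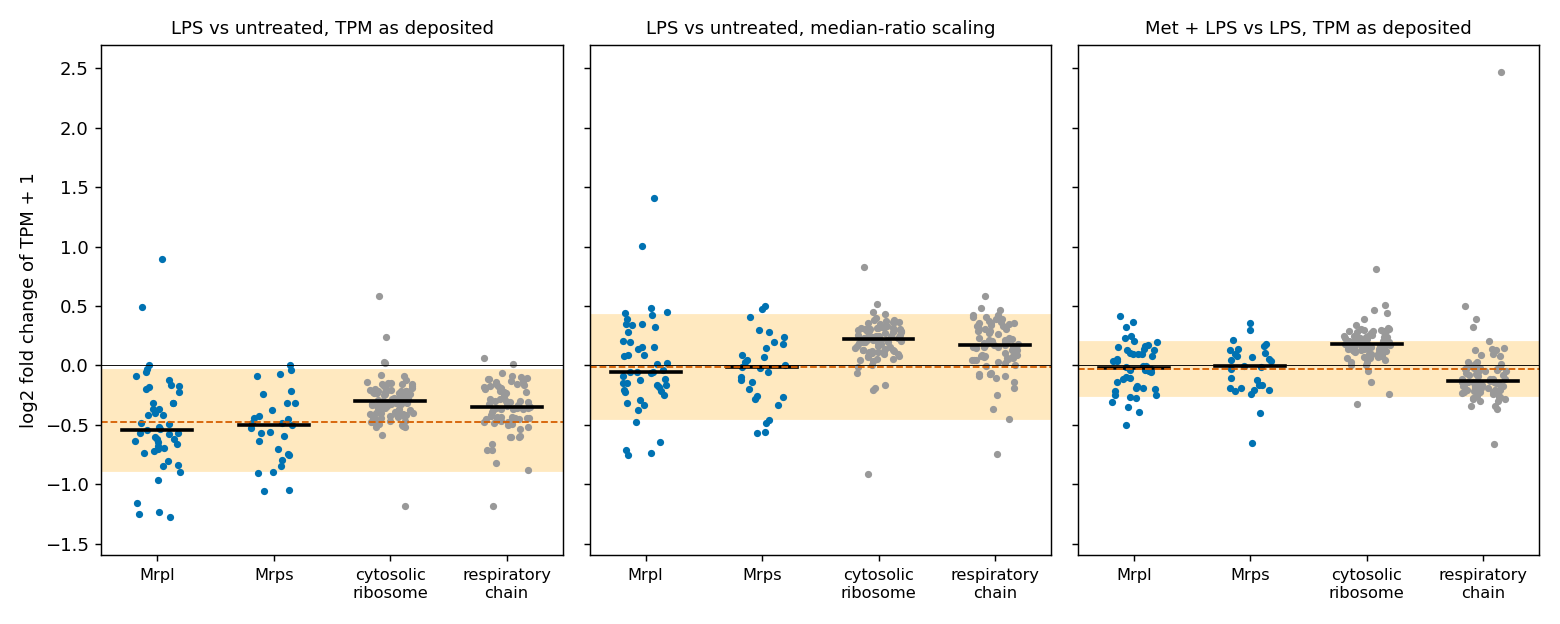
Log2 fold change of TPM + 1 for each tested gene of the large (Mrpl) and small (Mrps) mitoribosomal subunit, the cytosolic ribosome and the respiratory chain, with black bars at the medians, the dashed line at the median and the band at the quartiles of all tested genes. In Met + LPS vs LPS the mitoribosomal medians lie near 0 (-0.02 and -0.00), that of the cytosolic ribosome above (0.18) and that of the respiratory chain below (-0.13).

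The 5 mitoribosomal proteins without an Mrp name were all called lower with LPS as deposited, where 60.1% of all tested genes were called lower. Dap3, a GTP-binding protein of the small subunit, had 17.6 and 18.8 TPM untreated, 13.0 and 13.5 with LPS and 14 and 13.3 with Met + LPS (log2 fold change -0.43 with LPS). Aurkaip1 had 83.9 and 89.9, 60.5 and 59.6, and 53.7 and 61.1 TPM (-0.52), Ptcd3 had 12.7 and 12.6, 9.93 and 9.29, and 10.0 and 11.2 TPM (-0.36), and Gadd45gip1 had 11.2 and 10.6, 6.43 and 7.64, and 7.59 and 7.07 TPM (-0.57). Chchd1 had 79.4 and 75.1 TPM untreated, 66.0 and 66.8 with LPS (-0.21) and 82.2 and 85.1 with Met + LPS, and was the 1 of the 5 called in Met + LPS vs LPS, at 0.33 (limma adjusted p = 0.00104). After scaling, 1 of the 5, again Chchd1, was called in LPS vs untreated, and higher (0.30), with backgrounds of 27.6% lower and 30.6% higher.

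The values of the 2 gene groups most like the members were set beside theirs, with no test of the differences. As deposited, 76.4% of the cytosolic ribosomal proteins and 71.2% of the respiratory chain subunits were called lower with LPS, and 75.3% of the members. Of all tested genes, 60.1% were called lower and 16.2% higher. Of the 89 tested cytosolic ribosomal proteins, 68 were lower and 0 higher with LPS, with a median of -0.30. After scaling 0 were lower and 50 higher (backgrounds of 27.6% and 30.6%), with a median of 0.22, where the members were at -0.04. With metformin pretreatment (Met + LPS vs LPS), 31 were higher and 0 lower (backgrounds of 14.5% and 18%), with a median of 0.18. The example with the largest called change there was Rpl13a, with 15.3 and 13.5 TPM with LPS and 19.4 and 20.5 with Met + LPS (0.44), and in LPS vs untreated it was Rpl10a (-0.52). Of the 80 tested nuclear subunits of the respiratory chain and ATP synthase, 57 were lower and 0 higher with LPS (median -0.35), and after scaling 2 were lower and 34 higher. Met + LPS vs LPS gave 19 lower and 4 higher (23.8% and 5%, against 18% and 14.5% of all tested genes), with a median of -0.13. The largest called changes were those of Atp5s with LPS (-1.18) and of Cox6a2, a muscle-type subunit of complex IV that rested on as few as 5 reads in a library, with metformin (2.47). The differences between these lists and the members are counts and medians without a test.

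Genes that build and serve the mitoribosome were mostly called lower with LPS as deposited, as were 60.1% of all tested genes (27.6% after scaling). Of 27 genes of mitoribosome assembly and rRNA modification, 23 were lower and 0 higher (median -0.72), and after scaling 12 were lower and 3 higher. Mrm2, a methyltransferase of the large rRNA, had the largest change, from 15.6 and 15.5 TPM untreated to 3.19 and 1.99 with LPS and 1.38 and 2.11 with Met + LPS (-2.22), resting on as few as 15 reads. All 15 tested translation factors of 17 were lower (median -0.77), and 7 were lower and 2 higher after scaling. Taco1, the activator of Cox1 translation, had 22.3 and 18.3 TPM untreated and 5.89 and 7.33 with LPS (-1.49). Of 9 tested genes of mitochondrial DNA transcription and replication, 8 were lower and 0 higher (median -0.86), Twnk the most, and after scaling 4 were lower and 1 higher. In Met + LPS vs LPS, 3 of the 27 were higher and 1 lower (11.1% and 3.7%), 4 of the 15 higher and 1 lower (26.7% and 6.67%) and 1 of the 9 higher and 1 lower (11.1% each), where 14.5% of all tested genes were higher and 18% lower. Oxa1l, which inserts mitochondrially made proteins into the inner membrane, was higher, with 18.6 and 19.0 TPM with LPS and 27.8 and 26.6 with Met + LPS (0.51, limma adjusted p = 0.000208). Noa1, a GTPase of small-subunit assembly, was higher at 22.6 and 22.5 TPM against 16.7 and 16.8 (0.41, limma adjusted p = 0.000612).

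The RNA components of the mitoribosome were both called higher in Met + LPS vs LPS, as were 14.5% of all tested genes. mt-Rnr2, the large rRNA, had 869 and 821 TPM untreated, 929 and 943 with LPS and 1612 and 1595 with Met + LPS, a log2 fold change in Met + LPS vs LPS of 0.78 (standard error 0.0364, limma adjusted p = 2.18e-05). mt-Rnr1, the small rRNA, had 687 and 609, 718 and 736, and 1167 and 1226 TPM (0.72, limma adjusted p = 0.000181). The libraries were made from poly-A RNA, which leaves out rRNA without a tail. Of 13 mitochondrial mRNAs, 7 passed the filter and 6 were listed at 0 to 0.38 TPM with at most 1 read. With LPS, 0 of the 7 were called as deposited, where 60.1% of all tested genes were lower and 16.2% higher. After scaling 7 were higher, as were 30.6% of all tested genes. Met + LPS vs LPS gave 5 lower and 1 higher (3 and 1 after scaling). Of all tested genes, 18% were lower and 14.5% higher there (17.4% and 15.6% after scaling). The mRNA called higher was mt-Co1, at 15363 and 14387 TPM with LPS and 18445 and 18847 with Met + LPS (0.33, limma adjusted p = 0.00166).

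Of 9 tested transcription factors and coactivators known to act on mitochondrial genes, 4 were higher and 4 lower with LPS, and 4 higher and 1 lower after scaling. Backgrounds over all tested genes were 16.2% higher and 60.1% lower, and 30.6% and 27.6% after scaling. Ppargc1b, a coactivator of mitochondrial biogenesis, had 3.33 and 3.60 TPM untreated, 18.3 and 20.8 with LPS and 11.3 and 11.9 with Met + LPS (2.20 with LPS, limma adjusted p = 1.03e-06, and -0.70 in Met + LPS vs LPS). Myc had 18.5 and 17.2 TPM untreated, 12.4 and 12.4 with LPS and 36.0 and 32.7 with Met + LPS (1.40 in Met + LPS vs LPS, limma adjusted p = 2.08e-05). Of the 9, 2 were higher and 1 lower in Met + LPS vs LPS (22.2% and 11.1%, against 14.5% and 18% of all tested genes). Of 4 markers of mast cells and basophils (Cpa3, Mcpt8, Kit and Ms4a2), 1 passed the filter, Kit. It had 19.5 and 19.7 TPM untreated, 7.92 and 8.00 with LPS and 24.2 and 22.9 with Met + LPS. All 4 summed to 21.1 and 20.6, 8.31 and 8.18, and 24.4 and 23.2 TPM in the same order. Kit made up most of each sum, and what the other markers added was highest in the untreated libraries, unlike Kit. The part of these markers in the members' values was not tested.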

How the data were processed

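Per the labels and the study's methods, the authors enriched poly-A RNA, sequenced single-end reads, aligned them to GRCm38 with STAR 2.6.1d, indexed the alignments with SAMtools 1.9 and counted reads in genes with featureCounts of Subread 1.6.3. They deposited 1 table of TPM for 54532 genes in 6 libraries, with replicates kept apart. How counts were turned into TPM, and the strand setting of the counting, are not given in the sources used here. TPM are not counts, so a count model was not the main test.

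The main test was limma 3.58.1 (R 4.3.3), run on log2(TPM + 1) for the 12755 genes that reached 1 TPM in 2 or more of the 6 libraries. All libraries entered 1 lmFit model (3 residual degrees of freedom), eBayes was given a trend over the mean level, and p-values were adjusted by Benjamini-Hochberg over all tested genes. Fold changes on this scale understate the change of low genes. Genes were called at an adjusted p under 0.01, and the study's fold cut-offs were counted beside. The study used DESeq2 with these cut-offs, so the counts here are not counts in its own gene lists. An exact permutation test of 2 against 2 libraries cannot go below p = 0.333 and was not used. The fits were tested on simulated data in which equal numbers of genes were raised and lowered. That simulation held no shift of the median gene, so it did not cover the shift seen with LPS.

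The members, gene lists and motifs were chosen with earlier results of these data known. Genes named are the 5 largest and 5 smallest log2 fold changes among tested members in LPS vs untreated and in Met + LPS vs LPS, the 3 highest mean levels per subunit, members failing the filter, the S18 paralogs, from each other list the called gene with the largest absolute change in each comparison, and the 5 mitoribosomal proteins without an Mrp name. Others named were chosen after their values were seen.

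Exon lengths and sequences came from GENCODE M21 on GRCm38, which matched 54495 genes by identifier. Each TPM was multiplied by exon length. For 96.1% to 96.3% of the values above 0 the product was, within 0.02, a whole number of 1 unit shared by the library, and that number was taken as the reads of the gene. The reads carry no molecular identifiers. Promoters came from RefSeq GRCm38.p6, matched by symbol.

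Alternatives were a smaller pseudocount (0.1), all genes without a filter, a filter at 5 TPM, median-ratio scaling, fits of only the groups compared, the replicate letter as a block with and without scaling, no trend, voom on the recovered reads with and without scaling, an adjusted p under 0.05, leaving out each library, structural subunits, matches on 1 strand only, and, added after seeing the data, members with little shared sequence only. Tables and plots were made with numpy 2.4.6, pandas 2.3.3 and matplotlib 3.10.9 under Python 3.11.15.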

Additional observations from a re-analysis of the deposited data

How the results depend on the processing

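Median-ratio scaling decided the direction of the group and the counts in the comparisons with untreated cells. Mrpl52, Mrpl39, Mrpl43, Mrpl41, Mrpl2, Mrpl49 and Mrps27 were called the same way with LPS in all 16 alternative fits. In LPS vs untreated it left 15 members higher and 15 lower (15 and 14 with the replicate block as well, 18 and 15 by voom with scaling), with medians of -0.042 over all members (-0.044 by voom), -0.056 for the large (-0.059) and -0.012 for the small subunit (-0.012). Met + LPS vs untreated had 18 higher and 17 lower (17 and 18 with the block, 19 and 21 by voom), with medians of -0.00068 over all members (0.0030 by voom), -0.013 for the large (-0.0089) and 0.032 for the small subunit (0.039). The counts in Met + LPS vs LPS varied more: 1 higher and 3 lower with no filter on low values, 0 and 3 with the compared groups only, 2 and 3 with no trend, 10 and 16 at an adjusted p under 0.05, and 0 to 2 higher and 3 to 8 lower over 6 fits that each lacked 1 library. The cause was not tested, except that a looser threshold calls more genes. Members past the cut-offs in that comparison were 0 to 1 over those 6 fits (1 without LPS replicate A, 0 otherwise), and the small-subunit median in Met + LPS vs untreated ran from -0.55 to -0.43. Searching 1 strand only lowered the ETS share to 21.7% (12.1% of tested genes) and the SP1 share to 24.6% (47.7% of tested genes).

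Scaling changed the sign of 33 of the 77 members in LPS vs untreated and of 5 in Met + LPS vs LPS. Those among the genes named by rule went from below to above 0 with LPS: Mrps9 (0.0016, by voom 0.0026), Mrps21 (0.15, 0.15), Mrps15 (0.092, 0.093), Mrps18c (0.47, 0.49), Mrpl54 (0.32, 0.33), Mrpl27 (0.21, 0.21), Mrps7 (0.031, 0.032), Mrpl32 (0.45, 0.50), Mrps18b (0.50, 0.53, and 0.018 by voom without scaling) and Mrps18a (0.067, 0.067). In Met + LPS vs LPS they were Mrps15 (0.0031, 0.0069) and Mrpl2 (0.0099, 0.013). The block with scaling gave the values of scaling alone. Leaving out a library turned 6 members with LPS and 18 in Met + LPS vs LPS, and among the genes named by rule these were, with LPS, Mrpl13 (-0.038 to 0.052), Mrpl32 (-0.060 to 0.0021), Mrps18b (-0.024 to 0.024) and Mrps18c (-0.090 to 0.012), and, in Met + LPS vs LPS, Mrpl2 (-0.035 to 0.027), Mrpl41 (-0.25 to 0.040), Mrps15 (-0.077 to 0.056), Mrps18c (-0.086 to 0.017) and Mrps7 (-0.015 to 0.15).

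The A minus B deviations of the groups correlated at -0.0037, 0.028 and 0.0062, so no shared effect of the replicate letter was visible. The sources used here do not say whether the letters pair libraries across groups, and these correlations cannot settle it. The block left 2 higher and 58 lower in LPS vs untreated, 5 and 8 in Met + LPS vs LPS and 3 and 59 in Met + LPS vs untreated. Depth limits Mrpl23, Mrps34 and Mrps36, which had under 100 reads in a library.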

Other observations

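The 5 pseudogene symbols left out of the members held few reads. Mrpl23-ps1, Mrpl48-ps and Mrps36-ps1 had 0 to 4 reads in any library, and Mrps36-ps2 and Mrps36-ps3 were listed at 0 in all 6.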
